A study of Mus musculus with 2 samples.

Results

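The genes described here are the transcription factor genes *Hand1*, *Foxf1*, *Msx1*, *Msx2*, *Tbx3*, *Tbx20*, *Gata4* and *Gata6* and the long non-coding RNA *Fendrr*, known as factors of the lateral and extraembryonic mesoderm. They were taken by symbol from the gene list of the deposited count matrices, where all 9 were found among 32285 genes. Their unique molecular identifiers (UMIs, each standing for 1 captured mRNA molecule) were summed over the cells of each population of gastrulating mouse embryos.

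During gastrulation, epiblast cells pass through the primitive streak and leave it as nascent mesoderm. The cells that leave first from the posterior streak form extraembryonic mesoderm, which contributes to the amnion, the yolk sac and the allantois, and lateral mesoderm, which gives rise to the heart and body wall. BMP ligands from the extraembryonic ectoderm promote this posterior fate, and *Msx1*, *Msx2*, *Tbx3*, *Hand1* and the *Gata* genes are widely used as readouts of it. Several of the factors also act outside the mesoderm: *Gata4* and *Gata6* in the endoderm, and *Hand1* in the trophoblast lineage.

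Cells came from embryos at embryonic day 7 (E7), pooled by genotype and then dissociated, with a single 10x Genomics 3′ library for each genotype. The *Yap1* cKO pool carried Sox2cre:Yapflox/flox, which deletes *Yap1*, a transcriptional coactivator of the Hippo pathway, from the epiblast and its descendants. The control pool is given as heterozygous, Sox2cre:Yapflox/+, in the series design and in the paper's methods for these single-cell libraries. The sample labels give it as WT, and the paper's general methods on mice describe Cre-negative floxed littermates as controls. Sox2-Cre acts in the epiblast and is not meant to recombine in visceral endoderm or extraembryonic ectoderm. The paper cautions that extraembryonic tissues of its floxed embryos, controls included, are likely heterozygous for *Yap1* through a deleted paternal allele. With 1 library per genotype there was no replicate, so no test was made. The 95% intervals below are exact and take in counting error alone, leaving out how embryos, pools and libraries vary.

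The control library held 1829 barcodes with 70573418 UMIs, and the *Yap1* cKO library 1897 barcodes with 87937858 UMIs. At a minimum of 5000 detected genes, 791 and 864 cells remained, with medians of 75715 and 80921.5 UMIs, and 2 barcodes occurred in both libraries. *Yap1* itself was measured at 29.2 CPM, that is UMIs per 1000000 UMIs of the same cells, in control epiblast-like cells and at 1.11 CPM in those of the *Yap1* cKO. In visceral endoderm-like cells it was at 30.4 and 27.9 CPM. *Yap1* was lower in the *Yap1* cKO in the other extraembryonic gates, at 39.1 and 13.0 CPM in anterior visceral endoderm-like cells, a ratio of 0.33 (0.18 to 0.60), and at 24.8 and 18.3 CPM in extraembryonic ectoderm-like cells, a ratio of 0.74 (0.63 to 0.87). Both samples are labelled female, but 409 control and 134 *Yap1* cKO cells carried Y-linked RNA without *Xist*, and 333 and 669 carried *Xist* without Y-linked RNA. These cells come from different embryos of a pool, so values are also given for them apart. The paper describes pools of only a few embryos, and how many of them gave each kind of cell is not known. The 2 kinds also differ in sex, so embryo and sex cannot be told apart. A ratio on the same side of 1 in both kinds is thus no replicate.

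Populations were gated on marker genes other than the factors described, with limits set after marker values were seen. The later mesoderm-like cells, gated on *Pmp22*, *Ahnak*, *Pitx1* and *Spin2c* at 150 CPM or more together, comprised 57 control and 35 *Yap1* cKO cells. That was 7.21% (5.50 to 9.24%) and 4.05% (2.84 to 5.59%) of all cells. Nascent mesoderm-like cells, gated on 7 genes including *Mesp1* and *Lefty2*, numbered 78 and 106. There were also 272 and 274 epiblast-like, 33 and 62 primitive streak-like, 29 and 28 blood progenitor-like, and 42 and 28 axial mesendoderm-like cells. The extraembryonic populations were 68 and 196 visceral endoderm-like, 18 and 17 anterior visceral endoderm-like, and 180 and 101 extraembryonic ectoderm-like cells. Over all cells, 50 control and 36 *Yap1* cKO cells lay close to the later mesoderm limit on either side, so the border of that population is a range of values. In later mesoderm-like cells, markers of visceral endoderm were at 5.02 and 9.19 CPM and those of extraembryonic ectoderm at 1.43 and 0.35 CPM.

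*Hand1*, a basic helix-loop-helix factor needed for extraembryonic mesoderm, heart and trophoblast, was highest in later mesoderm-like cells, at 533 CPM (511 to 555) in the control against 467 CPM (442 to 492) in the *Yap1* cKO. Blood progenitor-like cells followed at 106 and 118 CPM, extraembryonic ectoderm-like cells at 67.1 and 79.5 CPM, and nascent mesoderm-like cells at 40.5 and 60.2 CPM. Each of these levels lay outside the counting interval of the next in both libraries. The place of the blood progenitor-like cells rested on a few of them. Without the cell highest in *Hand1* in each library their level was 70.2 CPM (60.1 to 81.5) and 88.4 CPM (77.2 to 101), which overlapped that of extraembryonic ectoderm-like cells. Epiblast-like cells held 1.35 and 3.43 CPM. In anterior visceral endoderm-like cells no *Hand1* UMI was counted, and the exact interval reached up to 3.90 CPM in the control against 2.82 CPM in the *Yap1* cKO.

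*Foxf1*, a forkhead factor of the lateral and extraembryonic mesoderm, was also highest in later mesoderm-like cells. It measured 238 CPM (223 to 253) in later mesoderm-like cells of the control and 216 CPM (200 to 234) in those of the *Yap1* cKO. Blood progenitor-like cells had 20.6 and 35.9 CPM and nascent mesoderm-like cells 16.1 and 30.02 CPM, and these neighbors in the order overlapped in both libraries. Of all *Foxf1* UMIs in the 9 populations, 86.4% of the control and 58.6% of the *Yap1* cKO lay in later mesoderm-like cells. Epiblast-like cells held 3 and 2 UMIs in all.

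*Fendrr*, a long non-coding RNA needed in the lateral mesoderm, is transcribed away from *Foxf1*. The annotated starts of the pair lie 1276 bases apart on chromosome 8 of GRCm38, at 121083110 on the minus strand for *Fendrr* and at 121084386 on the plus strand for *Foxf1*. *Fendrr* had 22.5 CPM (18.2 to 27.5) in later mesoderm-like cells of the control and 25.8 CPM (20.2 to 32.4) in those of the *Yap1* cKO. It was at 1.17 and 1.99 CPM in nascent mesoderm-like cells. In control cells of the epiblast, streak, axial, visceral endoderm and extraembryonic ectoderm gates no UMI was counted.

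Promoter sequence was given by RefSeq for 4 of the 9 genes, on build GRCm38.p6: *Fendrr*, *Msx1*, *Msx2* and *Tbx20*. The 250 bases before the start of *Fendrr* are shown because they lie between the starts of *Fendrr* and *Foxf1*. Those of *Tbx20* are shown because its levels over populations correlated with those of *Foxf1* (Pearson's r of 0.924, described below). That r left out anterior visceral endoderm-like cells, where control *Tbx20* was at 75.04 CPM and *Foxf1* at 1.06 CPM. Both windows are written 5′ to 3′ on the strand of the gene, and capitals mark a forkhead core, TAAACA. The *Fendrr* window is chr8:121083111-121083360 and the *Tbx20* window chr9:24774304-24774553, both on the minus strand.
Fendrr: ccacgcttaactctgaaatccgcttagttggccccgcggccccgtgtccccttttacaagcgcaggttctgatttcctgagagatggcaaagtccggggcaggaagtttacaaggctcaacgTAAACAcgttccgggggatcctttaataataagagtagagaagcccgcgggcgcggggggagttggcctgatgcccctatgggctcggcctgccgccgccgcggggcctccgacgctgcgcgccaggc
Tbx20: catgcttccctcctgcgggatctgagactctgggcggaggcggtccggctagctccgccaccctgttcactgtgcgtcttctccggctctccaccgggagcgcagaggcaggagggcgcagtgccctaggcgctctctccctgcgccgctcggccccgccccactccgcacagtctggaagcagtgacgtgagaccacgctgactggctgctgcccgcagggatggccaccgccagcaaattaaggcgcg
The forkhead core stood in the *Fendrr* window on the strand of the gene, with its first base at -128 from the start. A search of both strands also covered a TEAD core, GGAATG. It further covered a core bound by zinc finger factors of the Gata family, AGATAA. A T-box core, AGGTGTGA, was searched as well. The last was a SMAD core, GGCGCC, and hits were counted whether or not they overlapped. None of these occurred in the 4 windows, and the forkhead core occurred in no window but that of *Fendrr*. Of 32851 windows of this length, 12.0% held the forkhead core, 12.6% the TEAD core, 9.99% the Gata core, 1.12% the T-box core and 9.59% the SMAD core.

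*Msx1* and *Msx2*, homeobox repressors and direct targets of BMP signaling in many tissues, shared the later mesoderm-like maximum but differed elsewhere. *Msx1* was at 171 CPM (159 to 184) in later mesoderm-like cells of the control and at 172 CPM (158 to 188) in those of the *Yap1* cKO. Visceral endoderm-like cells came next with 112 and 157 CPM, and in the *Yap1* cKO these intervals overlapped. *Msx2* was at 211 and 192 CPM in later mesoderm-like cells and at 23.2 and 36.6 CPM in visceral endoderm-like cells. In extraembryonic ectoderm-like cells *Msx1* was at 0.293 and 2.73 CPM, whereas *Msx2* was at 9.26 and 13.9 CPM. Both genes were also present in primitive streak-like cells, with *Msx1* at 32.6 and 45.7 CPM and *Msx2* at 33.5 and 23.0 CPM.

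*Tbx3* and *Tbx20* encode T-box factors, *Tbx3* acting in yolk sac and limb and *Tbx20* in the heart. *Tbx3* was highest in later mesoderm-like cells, at 240 CPM (226 to 256) and 195 CPM (180 to 212). It was also at 106 and 134 CPM in visceral endoderm-like and at 105 and 112 CPM in blood progenitor-like cells. *Tbx20* was at 112 CPM (102 to 123) and 84.1 CPM (73.8 to 95.5) in later mesoderm-like cells. Its second level, unlike that of *Tbx3*, lay in the anterior visceral endoderm-like cells, with 75.04 CPM (58.6 to 94.7) and 47.4 CPM (36.3 to 60.7). The remaining visceral endoderm-like cells held 2.08 and 7.35 CPM.

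*Gata4* and *Gata6*, zinc finger factors of endoderm and cardiac mesoderm, did not peak in later mesoderm-like cells. *Gata4* was highest in anterior visceral endoderm-like cells, at 211 CPM (183 to 243) and 212 CPM (188 to 239), followed by visceral endoderm-like cells at 166 and 184 CPM. In the mesoderm it was at 101 and 87.2 CPM in nascent and at 112 and 116 CPM in later mesoderm-like cells. *Gata6* was highest in axial mesendoderm-like cells, at 123 CPM (111 to 135) and 102 CPM (88.7 to 116). In the control the next level was that of nascent mesoderm-like cells, at 120 CPM (111 to 129), and in the *Yap1* cKO that of later mesoderm-like cells, at 96.5 CPM (85.4 to 109). Both neighbors overlapped the axial value. In extraembryonic ectoderm-like cells *Gata4* was at 5.51 and 1.79 CPM and *Gata6* at 3.64 and 1.40 CPM, on a few cells. A single cell held 53.2% and 52.2% of the *Gata4* UMIs there and 54.8% and 72.2% of those of *Gata6*.

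**Figure D1:**
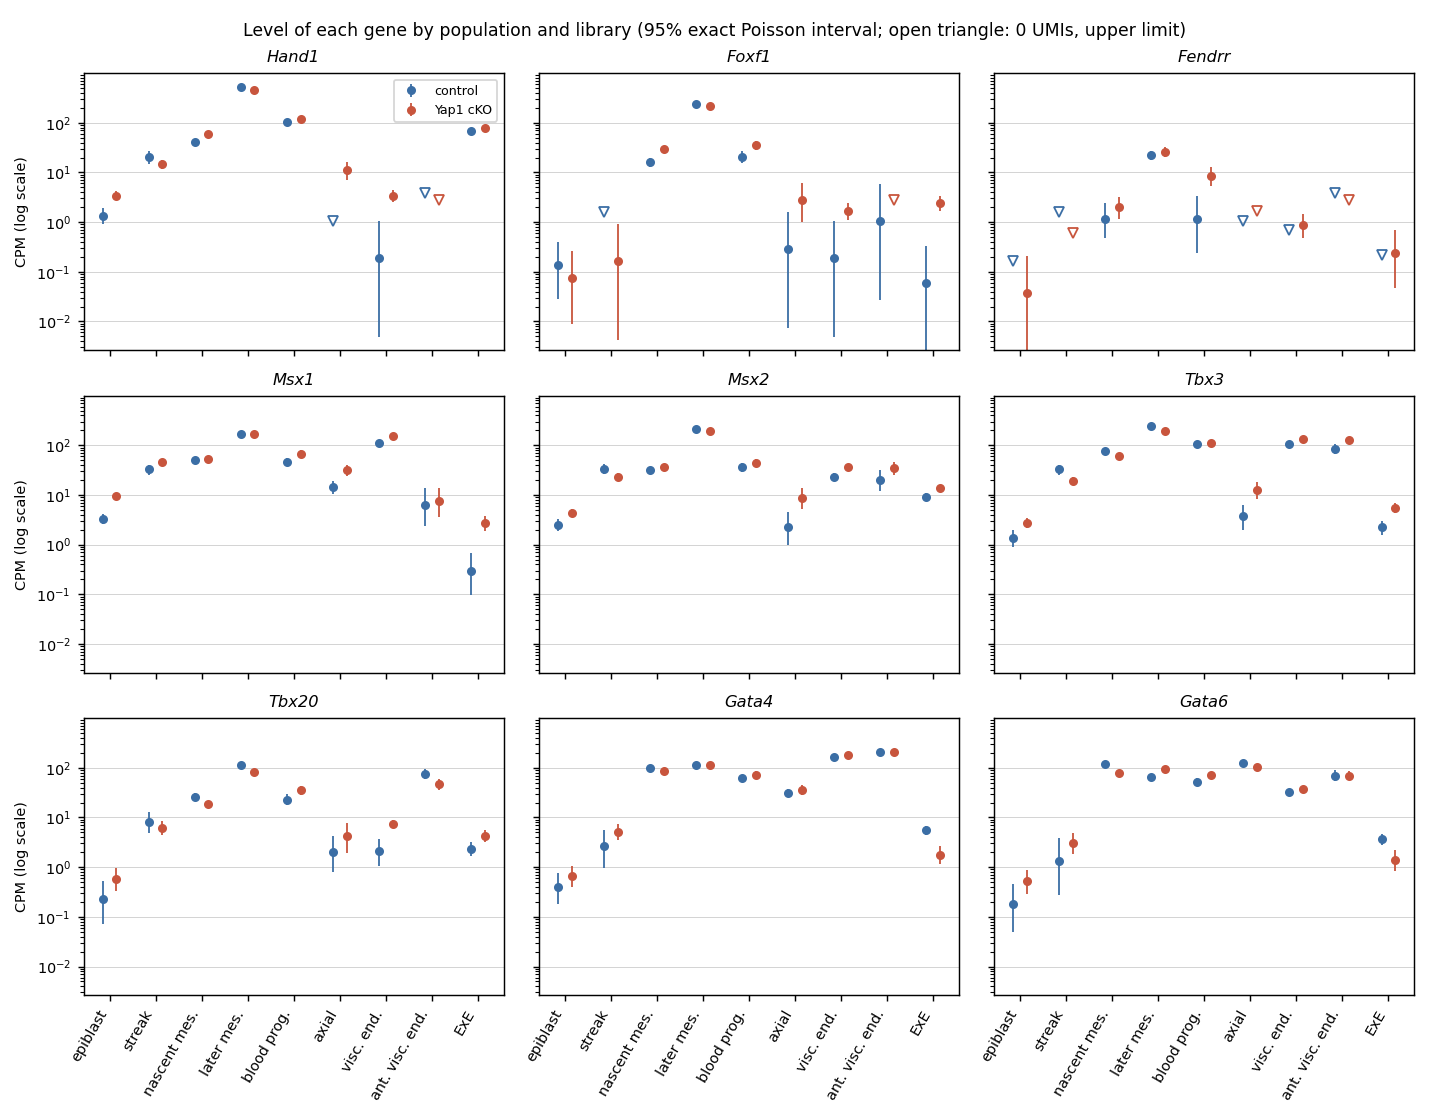
Each panel plots 1 gene, with the 9 populations on the x axis and CPM on a log scale on the y axis. Points are the summed level in the control (blue) and *Yap1* cKO (red) library, bars the 95% exact Poisson interval, and open triangles the upper limit where 0 UMIs were counted. *Hand1*, *Foxf1*, *Fendrr*, *Msx1*, *Msx2*, *Tbx3* and *Tbx20* are highest in later mesoderm-like cells of both libraries, and *Gata4* and *Gata6* are not.

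The share of cells with a UMI was measured next. For these shares every cell was thinned to 38000 UMIs, and 26 control and 48 *Yap1* cKO cells that were shallower were set aside. Of later mesoderm-like cells, 98.2% (90.3 to 100%) had *Hand1* in the control library and 100% (89.7 to 100%) in the other, and *Foxf1* in 96.4% and 100%. Without thinning these shares were 98.2% and 100% for *Hand1*, and 98.2% and 100% for *Foxf1*. In epiblast-like cells, which should lack both genes, *Hand1* was found in 4.10% and 5.68% of the cells and *Foxf1* in 0.746% and 0%, or 5.15% and 8.76%, and 1.10% and 0.730%, without thinning. The median depth before thinning was 72629 and 68780 UMIs in later mesoderm-like cells and 73285 and 85879 UMIs in epiblast-like cells. *Fendrr*, the lowest of the genes, was found in 41.8% (28.7 to 55.9%) and 52.9% (35.1 to 70.2%) of thinned later mesoderm-like cells.

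In nascent mesoderm-like cells the factors were detected in part of the cells. *Gata4* was found in 87.0% of control and 82.4% of *Yap1* cKO cells and *Gata6* in 92.2% and 79.4%, whereas *Hand1* was found in 45.5% and 44.1%, *Foxf1* in 28.6% and 36.3% and *Fendrr* in 6.49% and 8.82%. *Tbx3* was found in 72.7% (61.4 to 82.3%) and 56.9% (46.7 to 66.6%). The *Gata* genes were thus found in most nascent cells, and *Hand1*, *Foxf1* and *Fendrr* in a smaller share.

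**Figure D2:**
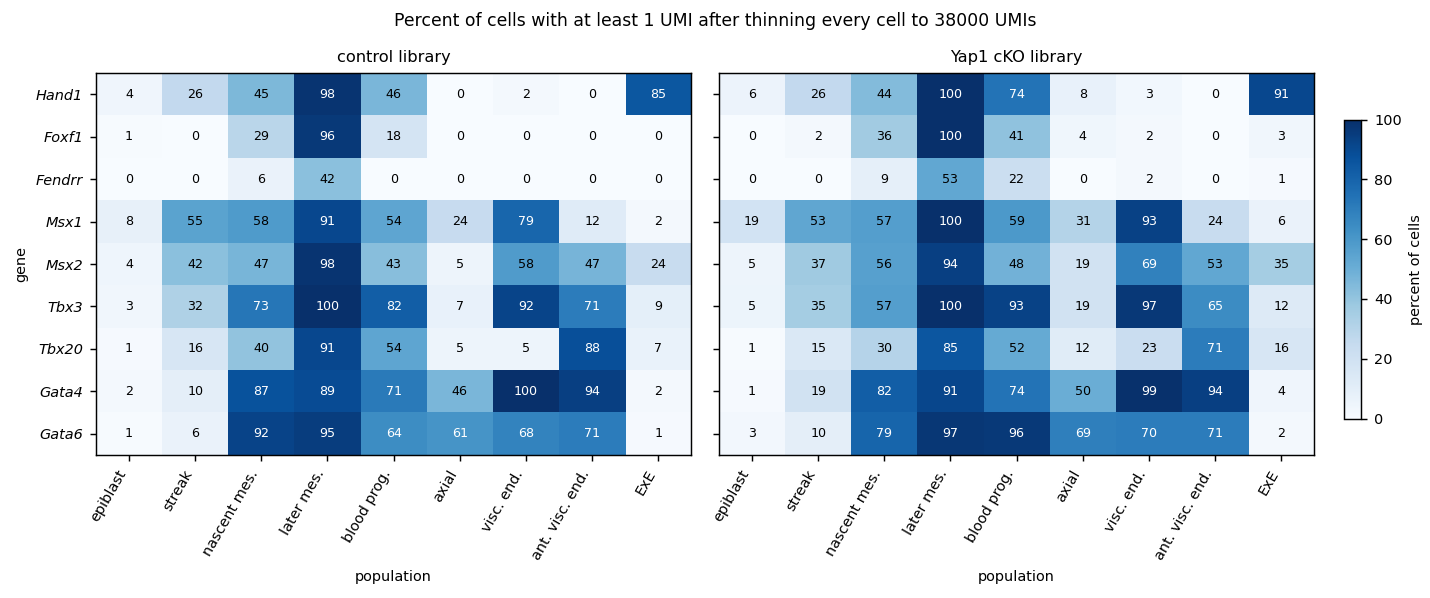
The 2 maps give the percent of cells with at least 1 UMI of each gene (rows) in each population (columns), control on the left and *Yap1* cKO on the right, after thinning every cell to 38000 UMIs. Later mesoderm-like cells exceed 85% for every gene but *Fendrr*, and the *Hand1* row is also dark in extraembryonic ectoderm-like cells, at 85.0% and 90.6%.

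Cells of the later mesoderm gate carried most of the factors together. After thinning, the median was 8 of the 9 genes per cell in both libraries, with a range of 6 to 9 for control and 7 to 9 for *Yap1* cKO cells. The median in nascent mesoderm-like cells was 4 and 4.5, in primitive streak-like cells 1 and 2, and in epiblast-like cells 0 and 0. Of 268 control epiblast-like cells, 222 had none of the 9 genes, against 194 of 264 in the *Yap1* cKO.

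Among nascent mesoderm-like cells, most cells with *Foxf1* had *Hand1*, and most with *Hand1* had *Tbx3*. Of 22 control cells with *Foxf1*, 18 also had *Hand1*, and of 37 *Yap1* cKO cells with *Foxf1*, 31 did. *Tbx3* was found in 35 of 35 control and 40 of 45 *Yap1* cKO cells with *Hand1*. *Tbx3* was also found in 50% and 31.6% of the cells without *Hand1*. *Gata4* and *Gata6* were found together in 63 of 77 control and 76 of 102 *Yap1* cKO cells. Each was detected in most nascent cells by itself, so these counts alone do not show that the genes go together. Neither was found in 2 control and 13 *Yap1* cKO cells. Cells of a library share embryos, so these counts describe the libraries only.

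The main question was how the factors differ when *Yap1* is deleted from the epiblast. A gene was counted as past the fold where its ratio of *Yap1* cKO to control CPM was at least 1.5 or at most 0.667, counting only genes that reached 50 UMIs in the population when the libraries were added. In later mesoderm-like cells all 9 genes could be compared, and 0 were past the fold in either direction. Of 8825 genes, 3.5% were past it on the higher side and 4.88% on the lower side. The median log2 ratio was -0.14 over the 9 genes and -0.03 over all genes compared.

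Within this range the genes did not move alike. *Gata6* had the highest ratio, 1.45 (1.22 to 1.72), from 66.5 CPM in the control to 96.5 CPM in the *Yap1* cKO. *Tbx20* had the lowest, 0.75 (0.64 to 0.88), followed by *Tbx3* at 0.81 (0.73 to 0.90) and *Hand1* at 0.88 (0.82 to 0.94). The intervals of *Foxf1*, *Fendrr*, *Msx1*, *Msx2* and *Gata4* held 1, with ratios of 0.91, 1.15, 1.01, 0.91 and 1.04. Both *Gata6* and *Hand1* kept their side of 1 whether cells were Y-bearing or *Xist*-bearing. The *Gata6* ratio was 1.58 (1.23 to 2.02) in the former, 39 control and 10 *Yap1* cKO cells, and 1.52 (1.15 to 2.03) in the latter, 15 and 24 cells. For *Hand1* it was 0.82 (0.73 to 0.92) and 0.90 (0.81 to 0.998).

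Past the fold on either side in the later mesoderm gate were 4 of the genes among Y-bearing and 2 among *Xist*-bearing cells. *Gata6* was among them in both. The share of all genes past the fold was not counted in these smaller sets. Some other genes of the gate differed between the sets. The *Msx2* ratio came to 0.65 (0.53 to 0.79) among Y-bearing and 1.02 (0.864 to 1.196) among *Xist*-bearing cells, and the *Fendrr* ratio was 0.53 (0.26 to 0.99) and 1.98 (1.17 to 3.51). Summed markers of the later gate were themselves lower in the *Yap1* cKO cells of the gate, at 373 CPM against 661 CPM in the control. Blood progenitor markers there were at 91.1 and 128 CPM and *Lefty2* at 5.98 and 25.4 CPM, in the order control and *Yap1* cKO. Their part in the ratios of the whole gate cannot be told apart from the genotype.

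In nascent mesoderm-like cells 8 of the 9 genes could be compared, *Foxf1* was past the fold on the higher side and *Gata6* on the lower side. Of 10417 genes, 3.08% were past it on the higher and 2.72% on the lower side, and the median log2 ratio was -0.08 over the 8 genes and -0.01 over all. *Foxf1* had 96 UMIs in 78 control and 272 UMIs in 106 *Yap1* cKO cells, a ratio of 1.87 (1.47 to 2.38). *Hand1*, just inside the fold, had 242 and 545 UMIs and a ratio of 1.48 (1.27 to 1.73). *Gata6* went the other way, from 120 CPM to 77.3 CPM, a ratio of 0.65 (0.58 to 0.72). *Gata4*, of the same family, had a ratio of 0.86 (0.77 to 0.96). These calls depended on the gate. With Leiden clusters the ratio was 1.26 for *Foxf1* and 0.739 for *Gata6*, and with doubled gate limits 1.42 and 0.709, so neither gene was past the fold. At a lower minimum of detected genes *Gata6* was at 0.6668, just inside it.

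Both genes past the fold kept their direction whether cells were Y-bearing or *Xist*-bearing. *Foxf1* was at 17.0 CPM in control against 46.1 CPM in *Yap1* cKO cells with Y-linked RNA, a ratio of 2.71 (1.74 to 4.22). In *Xist*-bearing cells it measured 11.3 and 29.3 CPM, giving a ratio of 2.60 (1.81 to 3.85). The *Gata6* ratio came to 0.80 (0.62 to 1.01) among Y-bearing and 0.64 (0.56 to 0.74) among *Xist*-bearing cells, so its interval held 1 in the former, which were 37 control and 12 *Yap1* cKO cells. The *Hand1* ratio was 3.31 (2.49 to 4.40) and 1.65 (1.33 to 2.06). *Tbx3* was on opposite sides, at 1.51 (1.19 to 1.89) among Y-bearing and 0.92 (0.77 to 1.11) among *Xist*-bearing cells. Epiblast markers in the nascent gate were at 301 CPM in the control against 454 CPM in the *Yap1* cKO, and *Lefty2* was at 283 and 192 CPM. Markers of parietal endoderm, a tissue known to express *Gata6*, were at 329 and 135 CPM. Their part in these ratios was not tested.

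**Figure D3:**
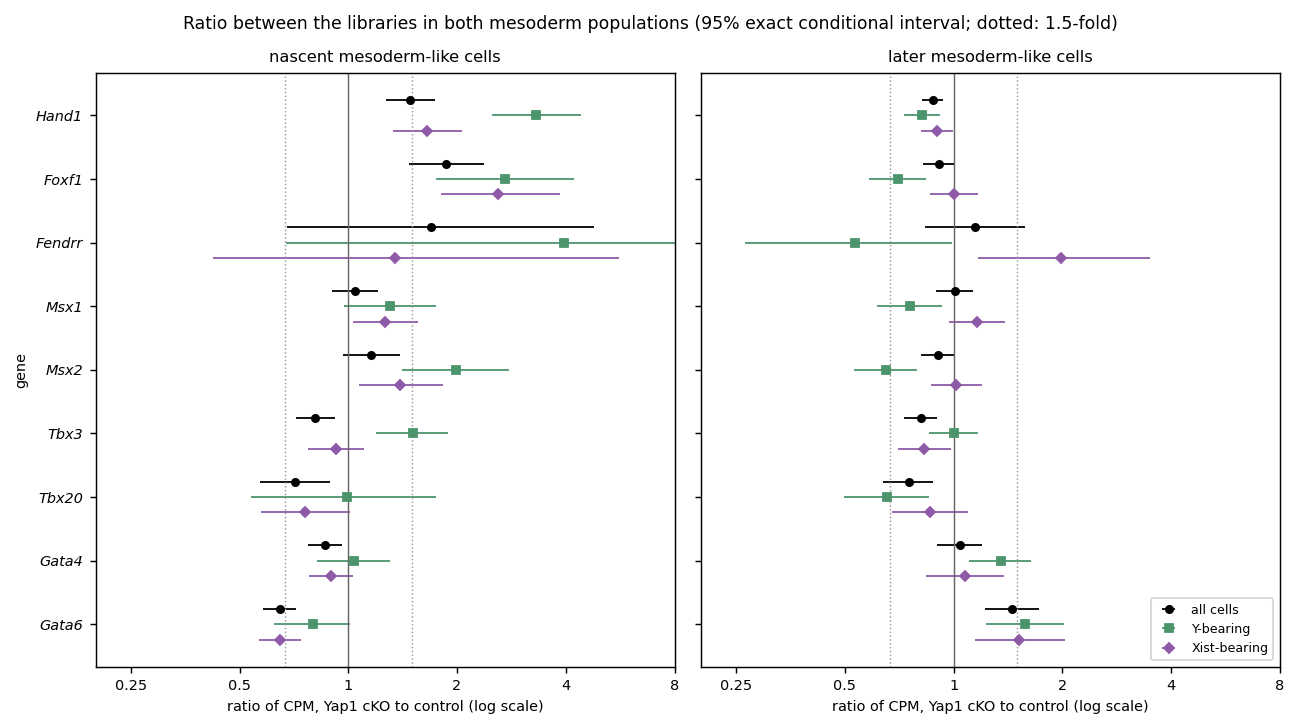
Points give the ratio of *Yap1* cKO to control CPM on a log scale for each gene, in nascent (left) and later (right) mesoderm-like cells, for all cells and for Y-bearing and *Xist*-bearing cells apart. Bars are 95% exact conditional intervals of the counts, and dotted lines mark 1.5-fold. *Foxf1* and *Hand1* lie above 1 in nascent cells in all 3 sets, and *Gata6* lies below 1 in nascent and above 1 in later cells.

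Both gates were then laid along 1 course, by the summed CPM of the 4 later mesoderm markers. There were 5 bins, with limits at 25, 75, 150 and 400 CPM. The limit at 150 CPM is that of the later gate. Bins under it hold the nascent mesoderm-like cells and bins over it the later ones. A change of ratio across this limit therefore restates the contrast of the gates. Cells under it had also passed the nascent markers, *Mesp1* and *Lefty2* among them, which cells over it need not have done. The control had 44, 22, 12, 21 and 36 cells in these bins and the *Yap1* cKO 60, 31, 15, 21 and 14, so fewer *Yap1* cKO cells stood at the far end. *Hand1* went from 7.58 to 48.4, 151, 276 and 671 CPM in the control versus 23.5 to 59.7, 251, 398 and 592 CPM in the *Yap1* cKO. *Foxf1* went from 4.67 to 17.8, 56.2, 165 and 277 CPM in the control versus 10.5 to 25.7, 142, 190 and 264 CPM in the *Yap1* cKO. Both genes were higher in the *Yap1* cKO in the first 4 bins and lower in the last, although the second bin's intervals of both ratios, and the last 2 of *Foxf1*, held 1.

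Within bins of these markers the *Hand1* and *Foxf1* ratios were lower in the last bin than in the first. The last bin had no upper limit, so marker levels within it need not match. *Phlda2*, a gene high in extraembryonic mesoderm, was there at 3573 CPM in the control against 1968 CPM in the *Yap1* cKO. The *Hand1* ratio was 3.1 (2.02 to 4.93) in the first bin, 1.66 (1.35 to 2.06) in the third, 1.44 (1.27 to 1.63) in the fourth and 0.88 (0.80 to 0.97) in the last. For *Foxf1* it was 2.24 (1.27 to 4.19), 2.52 (1.82 to 3.54), 1.15 (0.97 to 1.36) and 0.95 (0.83 to 1.10) in the same bins. *Fendrr* had its highest ratio in the fourth bin, with 6.14 CPM in the control against 20.3 CPM in the *Yap1* cKO, a ratio of 3.30 (1.56 to 7.77). The third bin held 12 and 15 cells and the last 36 and 14.

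The *Gata6* ratio moved in the opposite sense to that of *Hand1*. In the control it went from 113 CPM in the first bin to 144, 103, 72.4 and 63.3 CPM, and in the *Yap1* cKO from 73.8 to 82.7, 81.8, 88.7 and 111 CPM. The ratio was 0.66 (0.57 to 0.76) in the first bin and 1.75 (1.36 to 2.23) in the last. *Gata4* had ratios between 0.74 and 1.22. *Msx1*, *Msx2*, *Tbx3* and *Tbx20* were higher in the last bin than in the first in both libraries, and *Msx2* reached 248 and 244 CPM. *Tbx20* differed most in the second bin, with 39.8 CPM in the control against 16.0 CPM in the *Yap1* cKO.

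**Figure D4:**
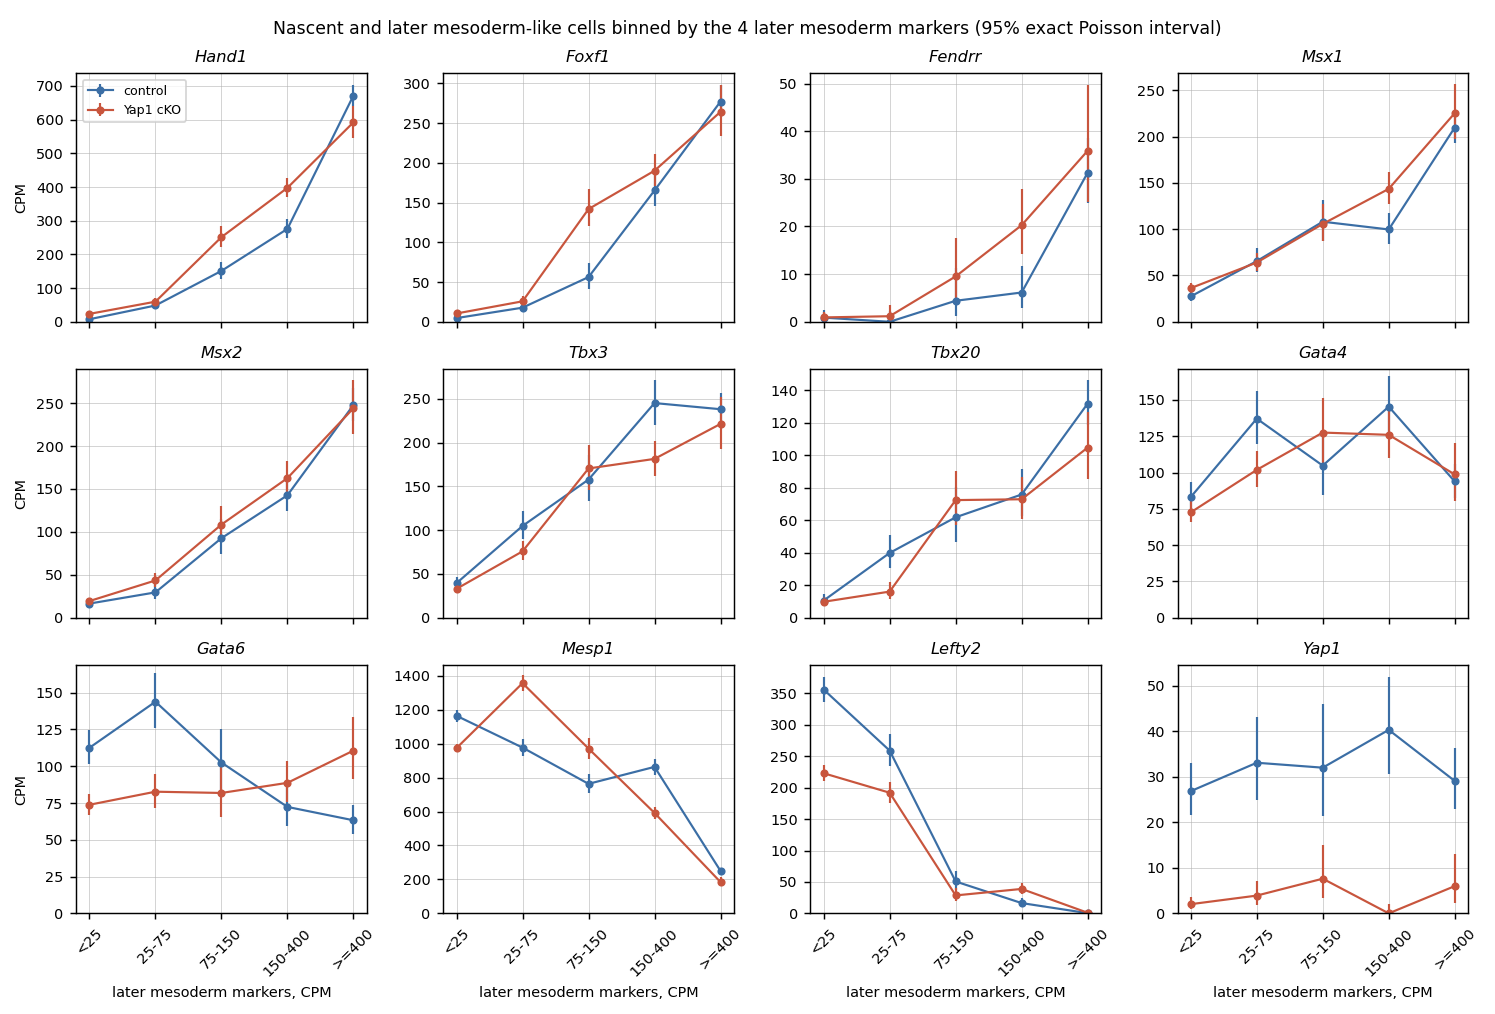
Nascent and later mesoderm-like cells are binned by the summed CPM of 4 later mesoderm markers (x axis), and each panel gives the CPM of 1 gene (linear y axis from 0, with its own scale) in the control (blue) and *Yap1* cKO (red), with 95% exact Poisson intervals. *Hand1* and *Foxf1* are higher in the *Yap1* cKO in the first 4 bins, the *Gata6* lines cross, and *Mesp1*, *Lefty2* and *Yap1* are shown for reference. *Mesp1* and *Lefty2* are markers of the nascent gate, so their levels along the course depend in part on the gates.

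When the *Yap1* cKO cells of each gate were weighted to the make-up of the control along this course, the *Hand1* ratio was 0.98 in later and 1.68 in nascent mesoderm-like cells. The *Gata6* ratio was then 1.55 and 0.65, and that of *Foxf1* 1.001 and 2.15. This weighting was chosen after the values had been seen.

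In primitive streak-like cells 5 of the 9 genes could be compared, and *Tbx3* alone was past the fold, on the lower side. Of 9193 genes, 3.55% were past it on the higher and 4.38% on the lower side, and the median log2 ratio was -0.48 over the 5 genes and -0.04 over all. *Tbx3* had 32.6 CPM (25.7 to 40.9) in 33 control cells and 19.6 CPM (16.2 to 23.4) in 62 *Yap1* cKO cells, a ratio of 0.60 (0.45 to 0.81). *Msx2* measured 33.5 and 23.0 CPM, giving a ratio of 0.69 (0.52 to 0.92), and *Msx1* 32.6 and 45.7 CPM, with a ratio of 1.40 (1.08 to 1.83). *Hand1* was at 20.4 and 14.6 CPM, with an interval that held 1 (0.50 to 1.04). The *Tbx3* ratio came to 0.52 (0.30 to 0.88) among Y-bearing and 0.61 (0.41 to 0.92) among *Xist*-bearing cells, and that of *Msx2* to 0.50 (0.29 to 0.85) and 0.74 (0.51 to 1.10). *Msx1* was on opposite sides, at 0.65 (0.41 to 1.03) and 1.90 (1.30 to 2.89), and *Hand1* was at 0.24 (0.10 to 0.52) and 1.06 (0.62 to 1.92). Axial mesendoderm markers in the streak gate were at 13.0 CPM in the control against 50.5 CPM in the *Yap1* cKO, those of anterior visceral endoderm at 21.7 and 38.3 CPM and those of extraembryonic ectoderm at 1.30 and 5.42 CPM. Their part in these ratios was not tested.

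Streak cells were then divided by a marker of the extraembryonic mesoderm. Parted at 200 CPM of *Phlda2*, an imprinted gene high in extraembryonic mesoderm, 6 of 33 control and 10 of 62 *Yap1* cKO streak-like cells lay above. *Hand1* was at 74.4 and 80.4 CPM in these and at 6.56 and 4.19 CPM in the others. *Tbx3* was at 121 and 87.6 CPM above the limit and at 9.84 and 8.76 CPM below it. The levels of both genes differed more between these sides than between the libraries.

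In epiblast-like cells 4 of the 9 genes had enough UMIs, *Hand1*, *Msx1*, *Msx2* and *Tbx3*, and all 4 were past the fold on the higher side in the *Yap1* cKO. Of 13033 genes, 2.36% were past it on the higher and 3.28% on the lower side, and the median log2 ratio was 1.18 over the 4 genes and -0.05 over all. Levels were low: *Msx1* was at 3.29 CPM in the control against 9.58 CPM in the *Yap1* cKO, a ratio of 2.91 (2.24 to 3.83). *Hand1* had 30 and 93 UMIs in all, and a single *Yap1* cKO cell held 33.3% of the latter. The same cell held 19 of 117 *Msx2* and 16 of 74 *Tbx3* UMIs. The ratios were 2.53 (1.66 to 3.96) for *Hand1*, 2.02 (1.30 to 3.19) for *Tbx3* and 1.74 (1.252 to 2.44) for *Msx2*. Without the cell highest in the gene in each library they were 2.31, 1.98 and 1.74. After thinning, *Msx1* was found in 7.84% of control and 18.6% of *Yap1* cKO cells. The shares were 4.10% and 5.68% for *Hand1*, 3.36% and 5.30% for *Tbx3*, and 4.48% and 4.92% for *Msx2*. With Leiden clusters in place of the gates the ratio was 0.954 for *Hand1* and 0.890 for *Tbx3*. A cluster named epiblast-like in that run held 40.3% epiblast-like cells.

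These epiblast ratios differed between cells of different embryos, which also differ in sex. In Y-bearing cells the *Msx1* ratio was 6.30 (4.10 to 9.98) and that of *Hand1* 8.06 (3.31 to 23.6), on 6 and 31 *Hand1* UMIs. In *Xist*-bearing cells *Msx1* was at 1.58 (1.12 to 2.28), but *Hand1* was at 0.64 (0.36 to 1.14), *Tbx3* at 0.83 (0.50 to 1.42) and *Msx2* at 0.61 (0.40 to 0.94). Only *Msx1* was thus higher in the *Yap1* cKO in both sets with an interval that left out 1. Within the control library the 4 genes also differed past the fold between *Xist*-bearing and Y-bearing epiblast-like cells, in 4 of 4 cases. For *Hand1* the ratio was 4.51 (1.79 to 13.5), on 24 and 6 UMIs. The share of all genes past the fold in this comparison was not counted. Primitive streak markers in the epiblast gate were at 2.98 and 6.96 CPM, those of anterior visceral endoderm at 3.11 and 10.3 CPM and those of axial mesendoderm at 3.88 and 7.89 CPM. Their part in the ratios was not tested. Parted at 100 CPM of *Fgf8*, a streak marker, *Msx1* was at 7.7 and 13.3 CPM in 52 and 121 cells above the limit and at 2.2 and 6.6 CPM in 220 and 153 cells below it. Above that limit the ratios were 1.31 (0.68 to 2.74) for *Hand1*, 0.78 (0.42 to 1.51) for *Tbx3* and 1.97 (1.08 to 3.89) for *Msx2*. Below it they were 3.27 (1.88 to 5.96), 3.37 (1.79 to 6.70) and 1.32 (0.85 to 2.05). The paper reports *Fgf8* itself as upregulated in the *Yap1* cKO epiblast. Cells on either side of this limit therefore need not match between the libraries.

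In visceral endoderm-like cells, where *Yap1* RNA was kept, 7 of the 9 genes could be compared and 3 were past the fold, *Hand1*, *Msx2* and *Tbx20*, each on the higher side. Of 10632 genes, 3.48% were past it on the higher and 2.97% on the lower side, and the median log2 ratio was 0.48 over the 7 genes and -0.02 over all. The minimum of UMIs was set on the libraries added, and *Hand1* and *Tbx20* reached it through their *Yap1* cKO UMIs. Their calls, and the median over the 7 genes, thus depended in part on this selection. *Msx2* measured 23.2 and 36.6 CPM, giving a ratio of 1.58 (1.30 to 1.93), and *Tbx20* had 11 and 118 UMIs, a ratio of 3.54 (1.91 to 7.29). With Leiden clusters the *Tbx20* ratio was 0.830, and with doubled gate limits that of *Hand1* was 0.914. A cluster named visceral endoderm-like held 50.6% visceral endoderm-like cells, and no cluster was named anterior visceral endoderm-like. *Hand1* had 1 UMI in 68 control and 55 UMIs in 196 *Yap1* cKO cells, with 36.4% of the latter in 1 cell and a ratio of 18.2 (3.13 to 730). These 55 UMIs lay in 7 cells, and after thinning 3 *Yap1* cKO cells of the gate carried at least 7 of the 9 genes, against 0 in the control. *Foxf1* had 1 and 27 UMIs in the gate, and the mesoderm genes *Mesp1* and *Kdr* had 2 and 47, and 0 and 32 UMIs. Their part in the *Hand1* and *Tbx20* ratios was not tested.

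The other genes compared in visceral endoderm-like cells stayed within the fold. *Gata4* was at 166 and 184 CPM, *Gata6* at 32.3 and 36.8 CPM, *Tbx3* at 106 and 134 CPM and *Msx1* at 112 and 157 CPM. Their ratios were 1.11 (1.03 to 1.195), 1.14 (0.96 to 1.36), 1.27 (1.15 to 1.39) and 1.40 (1.28 to 1.53). The *Msx1* ratio came to 0.28 among Y-bearing and 1.63 among *Xist*-bearing cells, on opposite sides of 1. In anterior visceral endoderm-like cells *Gata4* had a ratio of 1.004 (0.835 to 1.21) and *Tbx20* one of 0.63 (0.44 to 0.90), on 18 and 17 cells.

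*Hand1* in extraembryonic ectoderm-like cells was at 67.1 CPM (63.3 to 71.1) in the control against 79.5 CPM (74.7 to 84.6) in the *Yap1* cKO. Its ratio was 1.18 (1.09 to 1.29). *Foxf1* and *Fendrr* had 1 and 0 UMIs there in the control and 31 and 3 in the *Yap1* cKO. The 31 *Foxf1* UMIs lay in 5 of 101 cells and the 3 *Fendrr* UMIs in 1 cell. *Mesp1* had 5 and 47 UMIs in the gate, and after thinning 2 *Yap1* cKO cells carried at least 7 of the 9 genes, against 0 in the control. Their part was not tested. In 15 control and 7 *Yap1* cKO cells with at least 100 CPM of giant cell or ectoplacental markers, *Hand1* was at 169 and 147 CPM. In the other 165 and 94 cells it was at 57.8 and 73.5 CPM. The giant cell gene *Prl3d1* had 6 UMIs in 1 of those control cells and 0 in those of the *Yap1* cKO.

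Blood progenitor-like cells, gated on *Tal1*, *Etv2* and other hemato-endothelial genes, kept part of the mesodermal factors. *Tbx3* had a ratio of 1.06 (0.90 to 1.26) and *Hand1* one of 1.12 (0.95 to 1.32). The intervals of *Msx2*, at 1.19 (0.90 to 1.58), and *Gata4*, at 1.16 (0.94 to 1.44), also held 1. Higher in the *Yap1* cKO were *Foxf1* at 1.74 (1.23 to 2.48) and *Tbx20* at 1.55 (1.11 to 2.18). So were *Msx1* at 1.47 (1.16 to 1.87), *Gata6* at 1.33 (1.06 to 1.67) and *Fendrr* at 7.41 (2.23 to 38.7). The share of all genes past the fold was not counted in this gate. Markers of trophoblast giant cells or the ectoplacental cone were at 859 CPM in the control gate against 30.5 CPM in the *Yap1* cKO, and 1 control cell held 55.4% of these control UMIs together with 81 of *Hand1*. In 3 control and 2 *Yap1* cKO cells with at least 100 CPM of these markers, *Hand1* was at 744 and 613 CPM. In the other 26 and 26 cells it was at 23.3 CPM (17.5 to 30.4) against 89.8 CPM (78.3 to 103), and the ratio was 3.86 (2.85 to 5.30). The *Hand1* level of the control gate thus lay mostly in 3 cells, and this division was chosen after the values had been seen. *Foxf1* was at 20.6 and 35.9 CPM, but 1 control cell held 51.9% of its UMIs. Without the highest cell of each library it was at 10.6 and 30.5 CPM. *Fendrr* had 3 UMIs in 29 control cells, all in 1 cell, and 22 in 28 *Yap1* cKO cells. In axial mesendoderm-like cells *Gata6* had a ratio of 0.83 (0.70 to 0.98), and *Hand1* had 0 UMIs in 42 control and 24 UMIs in 28 *Yap1* cKO cells, 83.3% of them in 1 cell.

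The likeness of the genes was measured as Pearson's r of log2(CPM + 1) over 16 points, the 8 populations with at least 20 cells in each library. Anterior visceral endoderm-like cells were too few to be among them. The points share libraries and depth, and r is given as a description. *Foxf1* and *Fendrr* had r = 0.935, *Foxf1* and *Tbx20* 0.924, *Gata4* and *Gata6* 0.912, and *Msx1* and *Tbx3* 0.911. *Hand1* was far from *Gata6* (0.24), *Gata4* (0.237) and *Msx1* (0.21). Among 12744 genes with at least 200 UMIs, leaving out markers and the 9 genes, those most like *Foxf1* were *Hand2os1* (0.975), *Hand2* (0.966) and *Hoxb3os* (0.943). For *Hand1* they were *P4ha2* (0.918), *Man1c1* (0.89) and *Mrps33* (0.88), and for *Fendrr* *Hand2os1*, *Rbfox2* and *Hand2*. *Msx1* was most like *Mogat2*, *Fbln1* and *Glis1*, and *Msx2* and *Tbx3* shared *Wls* and *Sct* among their leading genes, with *Unc5c* the other for *Msx2* and *Man1a* for *Tbx3*. *Tbx20* was most like AC163638.2, *Pdgfrb* and *Hoxb3os*, *Gata4* like *Laptm4b*, *Serinc3* and *Map4*, and *Gata6* like *1010001N08Rik*, *Cept1* and *Lhx1os*.

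Some genes are transcribed next to a factor. *1010001N08Rik* is among the genes most like *Gata6*, whereas *Tbx3os1* is not among those named for *Tbx3*. *1010001N08Rik* runs antisense across the start of *Gata6* and had 51 and 47 UMIs in nascent mesoderm-like cells. *Tbx3os1* runs antisense across the start of *Tbx3* and was at 14.1 and 10.96 CPM in later mesoderm-like cells, well under *Tbx3* there. The library kit keeps the strand, but how reads of such overlapping genes were divided was not tested.

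A list of 54 other genes of lateral and extraembryonic mesoderm and of BMP response was set beside the factors. In later mesoderm-like cells 33 of them could be compared, and 5 were past the fold on the higher and 9 on the lower side. Among the higher genes were *Mef2c* at 2.05 (1.33 to 3.17), *Tbx2* at 1.80 (1.197 to 2.72), *Hand2* at 1.66 (1.24 to 2.22) and *Bmp7* at 1.61 (1.14 to 2.28). *Mef2c*, *Tbx2* and *Hand2* encode factors of the heart and *Bmp7* a BMP ligand. The lowest were *Dlk1* at 0.28 (0.20 to 0.38), which encodes a non-canonical Notch ligand, *Cdx4* at 0.36 (0.21 to 0.60), with 47.4% of its *Yap1* cKO UMIs in 1 cell, and *Cdx2* at 0.41 (0.31 to 0.54), caudal homeobox genes of posterior tissue, *Gata3* at 0.39 (0.18 to 0.77) and *Tagln* at 0.48 (0.30 to 0.75). The median log2 ratio over the 33 genes was -0.21.

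In nascent mesoderm-like cells 29 genes of that list could be compared, 3 of them past the fold on either side. *Bmp4*, the ligand that acts upstream of several of the factors, was at 5.19 CPM in the control against 10.5 CPM in the *Yap1* cKO, a ratio of 2.02 (1.33 to 3.13). *Dlk1* was at 1.57 (1.12 to 2.23), but 1 *Yap1* cKO cell held 50.4% of its UMIs there. The lower genes were *Foxc1* at 0.54 (0.37 to 0.77), *Myl7*, a cardiac myosin light chain, at 0.62 (0.58 to 0.66), and *Smad6*, an inhibitor of BMP signaling, at 0.66 (0.54 to 0.82). *Hand2* was also past the fold on the higher side, at 1.61, with an interval that held 1 (0.91 to 2.96).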

How the data were processed

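Single-cell suspensions of E7 embryos, pooled by genotype, were measured in 2 libraries, 1 per genotype. The authors deposited filtered matrices of whole UMI counts per gene and barcode, which the submitters' processing notes give as made with Cell Ranger 7.1.0 on mm10. Nothing in the deposited counts was normalized. Barcodes with at least 5000 detected genes and at most 10% mitochondrial UMIs were kept, and the latter limit removed 0. Cells were gated by summed CPM of marker genes. Some streak, anterior endoderm and later mesoderm markers of a longer list were dropped, and the limits were set, after marker values were seen. UMIs were summed per population and library and divided by all UMIs of the same cells. CPM has exact Poisson, ratios exact conditional binomial and shares exact Clopper-Pearson 95% intervals, all for counting error only. Doublets were kept in the main values, and scrublet called 4 control and 19 *Yap1* cKO cells. A mean of each cell's CPM, other gates, filters, scalings and subtraction of free RNA (0.593% and 0.346% of UMIs) were tried as alternatives. The free RNA profile was the sum of all deposited barcodes, not of empty droplets. Its share was set from secreted endoderm genes in epiblast-like cells. Analyses used Python 3.11.15 with numpy 2.4.6, scipy 1.17.1, pandas 2.3.3, scanpy 1.11.5 and matplotlib 3.10.9. The code for ratios and intervals was also run on simulated Poisson counts. Those counts held no variation between cells, embryos or pools, so they checked the code alone.

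All 9 genes are named, with the 3 genes of highest r for each, and from the list of 54 other genes up to 5 with the highest and 5 with the lowest ratio past 1.5-fold with an interval that leaves out 1 in the later and nascent mesoderm-like cells. *Hand2* in nascent cells was added after its value was seen, as was the count in epiblast-like cells. The 9 genes and the lists were chosen with earlier results of these data known. A gene that this rule would name is not reported here.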

Additional observations from a re-analysis of the deposited data

Results flagged for a closer look

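*Hand1* and *Gata6* had ratios of *Yap1* cKO to control on opposite sides of 1 in the mesoderm populations, each with a counting interval that left out 1. The *Hand1* ratio was 1.48 (1.27 to 1.73) in nascent and 0.876 (0.817 to 0.938) in later mesoderm-like cells. For *Gata6* the ratio was 0.646 (0.581 to 0.718) in nascent and 1.45 (1.22 to 1.72) in later mesoderm-like cells. Within the later gate the *Hand1* ratio was 1.44 (1.27 to 1.63) in the fourth course bin and 0.882 (0.802 to 0.968) in the last. The fourth bin held 21 control and 21 *Yap1* cKO cells, and the last 36 and 14. Weighted to the control's make-up along the course, the *Hand1* ratio of later mesoderm-like cells was 0.98. That of *Gata6* there ranged from 1.28 to 1.66 over the alternatives. The difference between the populations was not tested, since each genotype was 1 library.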

How the results depend on the processing

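The 33 ratios of the 9 genes were recomputed under up to 14 alternatives, giving 435 values. Of these, 372 stayed within their counting interval, 56 moved out of it, and 7 ratios past the fold changed side of 1. The alternatives were not alike in this. Among Y-bearing cells alone 27 ratios moved and 3 stayed. Among *Xist*-bearing cells alone 12 moved, 3 changed side and 18 stayed. Subtraction of free RNA, median-ratio scaling, other minima of detected genes and leaving out called doublets or shared barcodes moved none. The free RNA profile was the sum of the deposited barcodes and its share was small. Its subtraction could thus hardly move a ratio and says little about free RNA. The total thus says little about how the ratios vary between embryos. A change of side was counted only for ratios past the fold. Other ratios that crossed 1 are among the 372 and the 56. With Leiden clusters the ratio was 0.954 for *Hand1* and 0.890 for *Tbx3* in clusters named epiblast-like. For *Tbx20* it was 0.830 in those named visceral endoderm-like. Each cluster was named by its most frequent gate, and some were mixed. A cluster named epiblast-like held 40.3% epiblast-like cells, and a cluster named visceral endoderm-like held 50.6% visceral endoderm-like cells. No cluster was named anterior visceral endoderm-like. In *Xist*-bearing cells the ratio was 0.637 for *Hand1*, 0.611 for *Msx2* and 0.832 for *Tbx3* in epiblast-like cells. With doubled gate limits it was 0.914 for *Hand1* in visceral endoderm-like cells. The cause was not tested. The *Gata6* ratio ranged from 0.610 to 0.797 in nascent and from 1.28 to 1.66 in later mesoderm-like cells, and the *Foxf1* ratio in nascent cells from 1.26 to 2.71.

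The count of genes past the fold, on both sides together, was 4 in epiblast-like cells. It was 2 with halved gate limits, 1 with Leiden clusters, 2 in Y-bearing cells and 9 with no minimum of UMIs. In primitive streak-like cells it was 1, but 2 with halved limits, in *Xist*-bearing cells or without the 2 shared barcodes, 3 without called doublets, in Y-bearing cells or at 20 UMIs, 4 with no minimum and 0 at a fold of 2. In nascent mesoderm-like cells it was 2, but 1 at the lower minimum of detected genes or with Leiden clusters, 4 with halved limits or in Y-bearing cells and 0 at a fold of 2. In later mesoderm-like cells it was 0, but 1 with doubled limits or weighted to the control's make-up, 4 among Y-bearing and 2 among *Xist*-bearing cells. In visceral endoderm-like cells it was 3, but 1 in Y-bearing cells and 5 with no minimum. The gene counted in those Y-bearing cells was *Msx1*, at 0.280, on the lower side. In the sets by sex-linked RNA the minimum of UMIs was applied within the set. Among Y-bearing epiblast-like cells *Hand1* and *Tbx3* thus dropped out, at ratios of 8.06 and 6.24. *Msx1* and *Msx2* were counted there, at 6.30 and 6.66. Among *Xist*-bearing ones *Hand1* at 0.637 and *Msx2* at 0.611 were past the fold on the lower side. Leaving out shared barcodes or the cell highest in a gene, and the weighting to the control's make-up, were chosen after seeing the data. No primitive streak cluster was found by Leiden clustering. The share of all genes past the fold was not recounted under these alternatives.

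No paired analysis was possible because each genotype had 1 library and the groups share a single replicate number. Leaving out a replicate could not be done for the same reason. Embryo, genotype, pool and library cannot be told apart, and the sex make-up of the pools differed.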

Other observations

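Some of the 9 genes also differed between cells of different embryos and sex within 1 library. Past 1.5-fold between *Xist*-bearing and Y-bearing cells were 4 of 4 genes in the control epiblast-like cells and 3 of 4 in those of the *Yap1* cKO, but 1 of 8 in control nascent and 1 of 9 in control later mesoderm-like cells. In the *Yap1* cKO these counts were 5 of 8 and 3 of 9. The share of all genes past the fold between these cells was not counted, so the counts are not read as particular to the 9 genes. *Hand1* was 4.51 (1.79 to 13.5) times as high in *Xist*-bearing as in Y-bearing epiblast-like cells of the control, and 0.36 (0.21 to 0.61) times as high in the *Yap1* cKO. In *Yap1* cKO nascent mesoderm-like cells it was 0.47 (0.38 to 0.59) times as high. These cells were grouped by sex-linked RNA and not by a label.

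*Bmp4* along the course of later mesoderm markers was at 18.7 CPM in the control against 59.0 CPM in the *Yap1* cKO in the third bin, and at 142 and 79.7 CPM in the last.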
